A study of Homo sapiens with 6 samples.

Results

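The genes described here are interferon-stimulated genes and the nucleic acid sensors that start the interferon response, measured by RNA sequencing in MDA-MB-231 cells, a long-established line of triple-negative breast cancer. They were chosen by symbol from a list of 47 names. Of these, 46 matched a row of the deposited table, which holds 58735 genes, and 45 passed the filter on low counts. CMPK2, a mitochondrial nucleotide kinase, had only 4 counts in all and stayed untested. The name MB21D1 matched no row. The same gene stands in the table as CGAS, found through a RefSeq synonym, and its values are given below without being counted among the members. DDX58 and TMEM173 are the table's symbols for RIG-I and STING.

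The study asked how PM2.5, fine airborne particles, bears on the malignant behaviour of this breast cancer subtype. It holds 3 libraries labelled Control and 3 labelled PM2.5, all from MDA-MB-231 cells, with RNA taken 48 h after the exposure. The labels name no genetic change. They give neither the particle dose nor the vehicle nor any batch. The design text speaks of biological replicates without saying how separate the cultures were, so p-values measure the spread between these libraries, which may be technical.

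Cells sense foreign or misplaced RNA in the cytosol through the helicases RIG-I and MDA5, which signal through the adaptor MAVS, and sense DNA through cGAS, whose second messenger activates STING. Both routes switch on IRF transcription factors and interferons. Secreted interferons then act through their receptors, JAK kinases and a complex that holds STAT2 and IRF9 and binds interferon-stimulated response elements, raising a large set of antiviral genes. Tumour cells can hold a standing level of these genes without infection.

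Depth lay between 31846136 and 34691009 counts. Levels are in CPM, counts scaled to the same total in every library with TMM factors. Where no read was counted, a level under 0.0864 to 0.0980 CPM (3 counts, counting error only) would have been missed, depending on the library. Control replicate 3 stood apart on the second principal component, which held 14.98% of the variance, at a score of -36.9 against 16.5 and 14.8 in Control replicates 1 and 2. Haem oxygenase HMOX1 and the cytochrome CYP1A1, which particles are known to induce, fell in the PM2.5-labelled libraries (log2 changes of -3.99 and -1.20), and so did all 6 exposure markers examined. Directions are therefore given for the libraries as labelled. The mitochondrial share of counts also differed without overlap, at 3.05 to 3.47% in Control and 2.68 to 2.78% in PM2.5 libraries. The proliferation markers moved with the groups as well, with a summed level of 150.3 to 170.7 CPM in the Control libraries and 672 to 806 CPM in the PM2.5 libraries for MKI67, TOP2A, CCNB1, CCNA2, CDK1 and PCNA. The part of these differences in the results below was not tested. Vimentin (VIM), at 1922 to 2698 CPM, and CD44, at 1439 to 1591 CPM, were abundant. They belong to a list of 7 MDA-MB-231 markers, which summed to 7463 to 7752 CPM in Control and 11461 to 12226 CPM in PM2.5 libraries. All 7 were tested, of which 3 rose and 1 fell. The 6 luminal markers summed to 67.1 to 78.6 CPM in Control and 41.9 to 53.3 CPM in PM2.5 libraries. Both tested, ERBB2 and GATA3, fell, ESR1 was at 0 in all libraries and CDH1 did not exceed 0.0583 CPM. The summed level of 8 leukocyte markers was 3.28 to 3.82 CPM in Control and 6.06 to 7.61 CPM in PM2.5 libraries. Of these markers, 3 of the 4 tested (CD14, ITGAM and LYZ) rose, and PTPRC, CD3E, CLEC4C and LILRA4 were at 0 in all 6 libraries. The 6 fibroblast markers summed to 24.8 to 31.1 CPM and 27.4 to 31.2 CPM, with DCN and LUM at 0 in all libraries, and 1 of 3 tested, COL1A2, rose, from at most 0.0585 CPM to 0.483 to 0.634 CPM. The 4 endothelial markers summed to 39.8 to 52.7 CPM and 54.3 to 58.8 CPM, and 1 of 3 tested, PECAM1, rose. Another of the 3 had a log2 change of -1.09, with all PM2.5 libraries below all Control libraries, but was not called. The part of these markers in the results was not tested.

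In the libraries labelled PM2.5, 14 of the 45 tested members were lower and 6 were higher (edgeR quasi-likelihood test, Benjamini-Hochberg adjustment over all genes tested). Together these 20 are 44.4% of the members tested, where 31.9% of all tested genes were called in either direction. The 14 are 31.1% of the tested members, where 15.8% of all tested genes were lower. The 6 are 13.3%, where 16.1% of all tested genes were higher. Of the members, 7 were called lower by at least 1.5-fold (6.75% of all tested genes) and 1, GBP2, higher by as much (9.76% of all tested genes). Changes were small: the median log2 change of the members was -0.13, beside -0.01 over all tested genes, and only MX2 and GBP2 changed more than 2-fold. All PM2.5 libraries lay below all Control libraries for 17 members (22.9% of all tested genes), which are the 14 called lower and IRF3, IRF9 and HERC6. They lay above them for 6 (21.4% of all tested genes), which are IFITM1 and the members called higher other than GBP3. The number of members called lower ran from 10 to 15 when 1 library was left out, while that over all genes ran from 1436 to 2653 of 14975 (2365 with all libraries). The number called higher was 1 without PM2.5 replicate 1 and 3 without Control replicate 2 or PM2.5 replicate 3. Over all genes 1809, 1886 and 2392 were called higher in these fits (2410 with all libraries). In bulk RNA, fewer cells expressing a gene and less RNA per cell cannot be told apart.

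**Figure D1:**
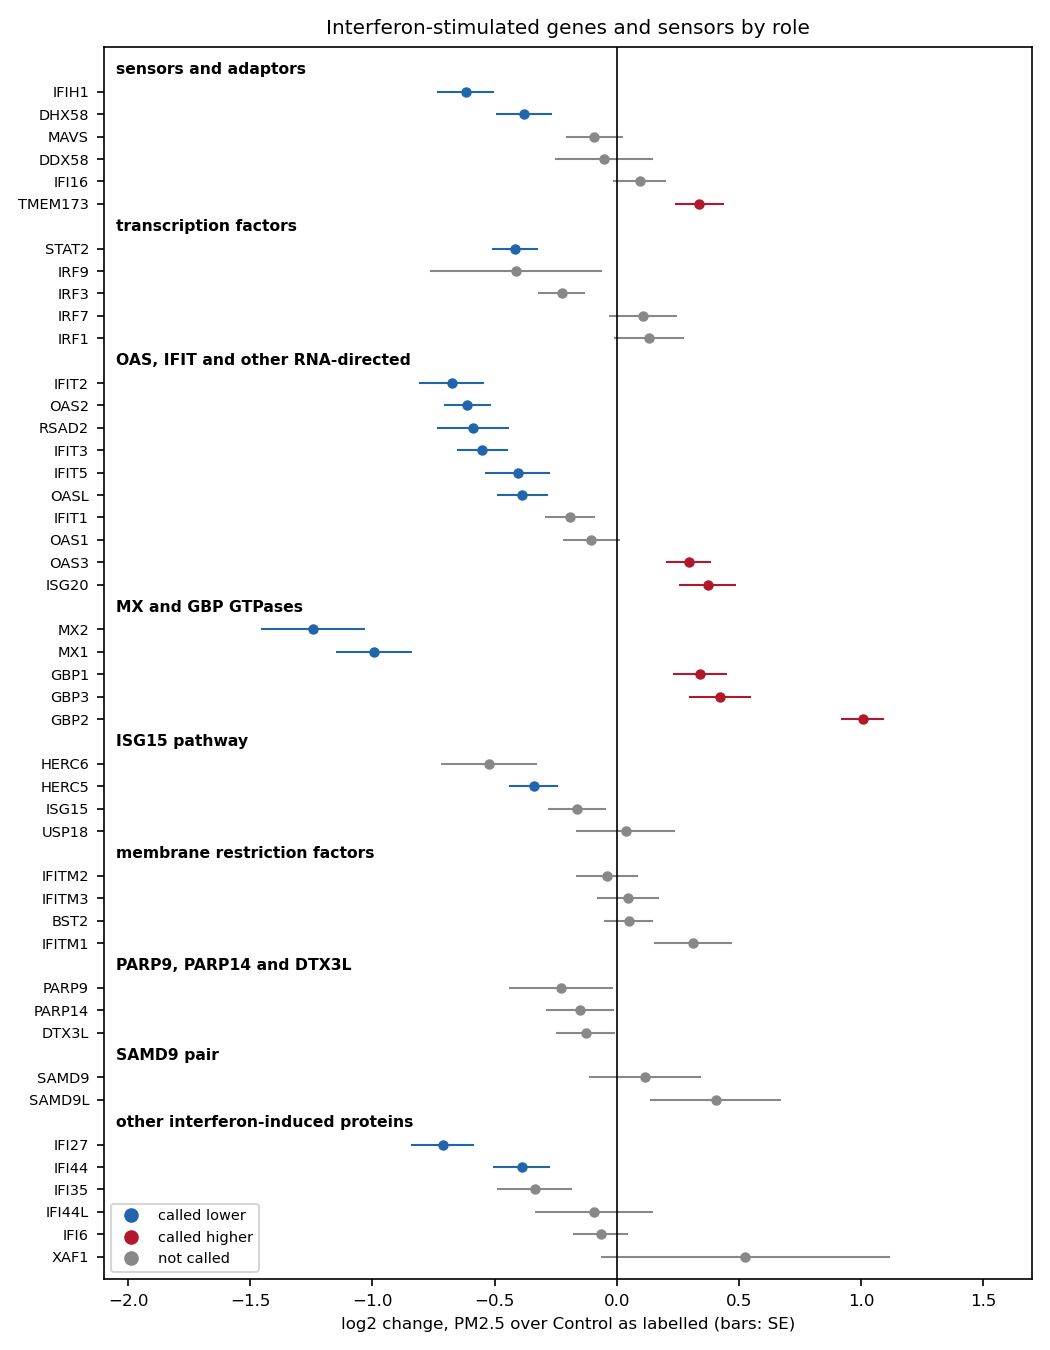
Log2 change of the 45 tested members, PM2.5 over Control as labelled, grouped by role, with bars for the standard error and colours for the call. The lower calls run from MX2 at -1.24 to HERC5 at -0.34, and the higher calls from OAS3 at 0.29 to GBP2 at 1.01.

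The promoters of these genes were searched for short sequences that they may share. An interferon-stimulated response element (ISRE) core was searched as GAAA and GAAA separated by any 2 bases, on both strands, with overlapping matches counted, between 250 bases before and 50 bases after the RefSeq start of each gene (GRCh38.p14). Promoters were matched for 35 of the 46 members. None was matched for MX2 and GBP2, the only members that changed more than 2-fold. The others without a promoter were OAS2, OASL, IFIT2, DHX58, TMEM173, IRF3, IRF7, USP18 and IFITM2. The core was present in 21 of these, 60.0%, and in 3.57% of 35116 promoters of the same length. It was found in 7 of the 9 matched promoters of members called lower, in 4 of the 4 of members called higher and in 10 of the 21 of members that were not called. A gamma-activated site core, TTCNNNGAA, was present in 9 of the 35 promoters, 25.7%, and in 7.66% of all promoters. Members with an ISRE core of the searched form had a median log2 change of -0.13 (21 tested) and those without it -0.10 (13 tested). Only a spacing of 2 bases was searched. The promoters of OAS1, RSAD2, DDX58 and XAF1, counted as without it, hold GAAACGAAA, and that of IFI35 holds GAAATGAAA. Matches describe letters in a window and not bound sites.

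The following 200 bases, from 170 before to 30 after the start, are shown because they hold the ISRE cores of the 4 members with the smallest p among those with a core, all called lower, and of OAS3, which was called higher and was added after its values were seen. Sequences are from RefSeq (GRCh38.p14), 5′ to 3′ on the gene's strand, with the ISRE cores in capitals.
MX1 promoter, chr21:41420388-41420587, plus strand: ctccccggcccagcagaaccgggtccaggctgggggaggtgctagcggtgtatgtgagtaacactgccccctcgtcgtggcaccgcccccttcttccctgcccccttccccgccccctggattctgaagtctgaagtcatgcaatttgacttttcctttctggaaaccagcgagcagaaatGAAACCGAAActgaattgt
IFI27 promoter, chr14:94110566-94110765, plus strand: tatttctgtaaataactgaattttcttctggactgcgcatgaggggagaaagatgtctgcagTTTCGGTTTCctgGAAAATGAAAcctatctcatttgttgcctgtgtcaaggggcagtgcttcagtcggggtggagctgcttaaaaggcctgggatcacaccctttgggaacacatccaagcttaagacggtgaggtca
IFIH1 promoter, chr2:162318655-162318854, minus strand: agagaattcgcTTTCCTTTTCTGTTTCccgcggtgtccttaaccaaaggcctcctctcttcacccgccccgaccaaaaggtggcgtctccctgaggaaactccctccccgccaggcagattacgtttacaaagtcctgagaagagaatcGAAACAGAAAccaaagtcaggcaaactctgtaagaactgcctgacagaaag
IFIT3 promoter, chr10:89327827-89328026, plus strand: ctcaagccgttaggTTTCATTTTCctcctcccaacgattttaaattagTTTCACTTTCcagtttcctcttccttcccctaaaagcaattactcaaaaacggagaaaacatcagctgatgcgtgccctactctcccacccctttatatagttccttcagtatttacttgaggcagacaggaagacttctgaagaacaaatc
OAS3 promoter, chr12:112938304-112938503, plus strand: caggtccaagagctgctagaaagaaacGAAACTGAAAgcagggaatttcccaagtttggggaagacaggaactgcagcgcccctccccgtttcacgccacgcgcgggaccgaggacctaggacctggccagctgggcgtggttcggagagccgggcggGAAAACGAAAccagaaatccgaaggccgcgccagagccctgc
MX1 held 1 core, after the start, IFI27, IFIT3 and OAS3 held 2 each, and IFIH1 held 3, of which 2 overlap. Cores of the same form stand in the printed promoters of genes that fell and in that of OAS3, which was chosen with its values known. The OAS3 call did not hold under every alternative. The part of these cores in the changes was not tested.

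Among the cytosolic RNA sensors, IFIH1 (MDA5, which binds long double-stranded RNA) and DHX58 (LGP2, a helicase that modulates the other sensors) fell. IFIH1, on the minus strand of chromosome 2 from 162267079 to 162318703 (GRCh38), held 59.4, 60.4 and 66.7 CPM in Control replicates 1 to 3 and 41.2, 46.6 and 33.7 CPM in PM2.5 replicates 1 to 3. The groups did not overlap, and the change was 1.53-fold (log2 change -0.62 ± 0.12, SE, n = 3 each, edgeR quasi-likelihood adjusted p = 0.00077). DHX58, on the minus strand of chromosome 17 from 42101404 to 42112733, held 21.2, 21.9 and 20.9 CPM against 16.0, 16.5 and 16.5 CPM. Its libraries were tight within each group and did not overlap between them, with a change of -0.38 ± 0.11 (edgeR adjusted p = 0.0185). That call was lost on leaving out Control replicate 1 (then adjusted p = 0.0593), Control replicate 2 (0.0709) or PM2.5 replicate 1 (0.102) in edgeR.

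DDX58 (RIG-I), the sensor of RNA with a 5′ triphosphate, was not called. It held 55.5, 46.5 and 96.7 CPM in Control and 67.1, 73.7 and 51.0 CPM in PM2.5 libraries. Control replicate 3 was the highest of the 6, and the groups overlapped (log2 change -0.05 ± 0.20, SE). Without Control replicate 3 the log2 change was 0.33 (edgeR adjusted p = 0.0899). MAVS, the mitochondrial adaptor of both helicases, held 97.9, 99.1 and 134.7 CPM against 99.3, 104.1 and 107.9 CPM. Control replicate 3 was again the highest, and the gene was not called (log2 change -0.09 ± 0.12, or 0.07 without that library).

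On the DNA-sensing side, STING (TMEM173), the adaptor on the endoplasmic reticulum, rose. It lies on the minus strand of chromosome 5 from 139475534 to 139482935 and held 94.4, 84.6 and 91.6 CPM in Control and 114.0, 101.6 and 126.7 CPM in PM2.5 libraries. Every PM2.5 library was above every Control library (log2 change 0.34 ± 0.10, SE, edgeR quasi-likelihood adjusted p = 0.0173). The call was lost on leaving out Control replicate 2 (then adjusted p = 0.0867), PM2.5 replicate 1 (0.0639) or that group's replicate 3 (0.0692) in edgeR. The DNA sensor CGAS held 49.9, 54.5 and 42.5 CPM against 53.0, 48.1 and 48.3 CPM, overlapping between the groups (log2 change 0.03 ± 0.11). IFI16, a nuclear DNA-binding protein of the same response, held 31.1, 30.02 and 34.7 CPM against 36.5, 34.4 and 31.4 CPM and was not called either (log2 change 0.09 ± 0.11).

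Of the transcription factors, STAT2, a subunit of the interferon-activated complex, fell. It held 63.6, 68.0 and 72.3 CPM in Control and 49.1, 53.2 and 50.4 CPM in PM2.5 libraries, with no overlap (log2 change -0.42 ± 0.10, SE, edgeR quasi-likelihood adjusted p = 0.00339). IRF3, the factor that the sensors activate first, held 125.1, 113.1 and 106.4 CPM against 101.6, 90.7 and 102.4 CPM. Its groups did not overlap, but it missed the threshold (log2 change -0.23 ± 0.10, edgeR adjusted p = 0.0870) and was called on leaving out Control replicate 3 (then adjusted p = 0.0252). Exons of BCL2L12 cover 19.4% of the exonic bases of IRF3.

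IRF1, which drives many genes of the interferon gamma type, held 89.3, 99.9 and 64.0 CPM against 91.5, 78.7 and 107.2 CPM. Exons of C5orf56 and AC116366.3 cover 22.0% of the exonic bases of IRF1. IRF7, the amplifier of interferon alpha genes, held 40.6, 41.4 and 26.7 CPM against 39.5, 39.4 and 38.2 CPM. Control replicate 3 was the lowest library for both genes, the groups overlapped, and both changed sign without it (log2 changes of 0.13 and 0.11 with it, -0.03 and -0.07 without it). IRF9, the DNA-binding part of the complex, was listed at 1.34, 1.14 and 1.08 CPM in Control and 1.01, 0.935 and 0.729 CPM in PM2.5 libraries. Exons of AL136295.5 on the same strand cover 48.4% of its exonic bases, so its level is uncertain, and AL136295.5 itself held 0.325 and 0.549 CPM on average. Its groups did not overlap, but the log2 change of -0.41 ± 0.35 was not called.

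The 3 OAS genes lie side by side on chromosome 12, and 1 was called lower, 1 higher and 1 not at all. They make short oligoadenylates that activate the nuclease RNase L. Over all tested genes 15.8% were lower and 16.1% higher. OAS2, at 112978395 to 113011723 on the plus strand, held 91.4, 82.1 and 99.1 CPM in Control and 56.9, 61.1 and 60.4 CPM in PM2.5 libraries. It fell 1.53-fold with no overlap (log2 change -0.61 ± 0.10, SE, edgeR quasi-likelihood adjusted p = 0.000191). Its neighbour OAS3, at 112938352 to 112973249, held 58.1, 59.9 and 63.4 CPM against 73.4, 70.1 and 78.8 CPM. OAS3 rose with no overlap (log2 change 0.29 ± 0.09, edgeR adjusted p = 0.0246). OAS1, at 112906777 to 112933222, held 50.2, 47.1 and 37.5 CPM against 40.2, 39.5 and 45.7 CPM, with overlapping groups (log2 change -0.10 ± 0.12). The OAS3 call was lost on leaving out Control replicate 1 (then adjusted p = 0.113), Control replicate 2 (0.0837), PM2.5 replicate 1 (0.0855) or that group's replicate 3 (0.0685) and with no filter on low counts (0.0557), all in edgeR. Whether the OAS2 and OAS3 changes differ was not tested.

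OASL, an OAS relative that lacks the enzyme activity and works with RIG-I, lies farther along the same chromosome at 121019111 to 121039242 on the minus strand. It was among the most abundant members, at 625.9, 607 and 523 CPM in Control and 462, 407 and 475 CPM in PM2.5 libraries. All PM2.5 libraries were below all Control libraries (log2 change -0.39 ± 0.10, edgeR quasi-likelihood adjusted p = 0.00965). The call was lost on leaving out Control replicate 1 (then adjusted p = 0.0580), PM2.5 replicate 1 (0.0549) or that group's replicate 2 (0.0522).

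Of the 4 IFIT genes, which bind viral RNA and block its translation and lie in 1 cluster on chromosome 10, IFIT2, IFIT3 and IFIT5 fell. Over all tested genes 15.8% were lower. IFIT2, at 89283694 to 89309276 on the plus strand, held 160.2, 155.6 and 218.6 CPM in Control and 114.5, 126.3 and 93.7 CPM in PM2.5 libraries. It had the largest fall among the IFIT genes (log2 change -0.68 ± 0.13, SE, edgeR quasi-likelihood adjusted p = 0.00108), and Control replicate 3 was the highest library. Exons of AL353751.1 and LIPA cover 10.3% of its exonic bases. IFIT3, at 89327894 to 89340971, held 228.4, 234.7 and 289.7 CPM against 175.1, 177.8 and 161.2 CPM. It fell by 0.55 ± 0.10 on the log2 scale, with no overlap (edgeR adjusted p = 0.000819).

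IFIT5, the member that binds a wide range of RNA ends, held 18.9, 19.1 and 17.8 CPM against 13.9, 16.1 and 12.1 CPM. Its groups did not overlap (log2 change -0.41 ± 0.13, edgeR quasi-likelihood adjusted p = 0.0293). This call was lost on leaving out Control replicate 1 (then adjusted p = 0.0809), Control replicate 2 (0.0893), PM2.5 replicate 1 (0.1003) or that group's replicate 3 (0.0914). IFIT1, the reader of RNA caps, held 200.6, 188.7 and 229.9 CPM against 190.95, 188.3 and 163.3 CPM, with overlapping groups, and was not called (log2 change -0.19 ± 0.10).

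RSAD2 (viperin), which makes a chain-terminating nucleotide, fell. It held 11.6, 14.7 and 13.3 CPM in Control and 9.42, 8.05 and 8.86 CPM in PM2.5 libraries, with no overlap (log2 change -0.59 ± 0.15, edgeR quasi-likelihood adjusted p = 0.00600). Its divergent neighbour CMPK2 was listed at 0.0653, 0 and 0 CPM against 0, 0.0603 and 0 CPM, and both groups are under the limit that a count of 0 allows. ISG20, an exonuclease that degrades single-stranded RNA, rose. It held 106.1, 103.2 and 80.1 CPM against 127.9, 110.7 and 135.9 CPM, with Control replicate 3 the lowest and no overlap between the groups (log2 change 0.37 ± 0.12, edgeR adjusted p = 0.0217). Its call was lost on leaving out Control replicate 3 (then adjusted p = 0.0507), PM2.5 replicate 1 (0.0738) or that group's replicate 3 (0.0779).

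Of the antiviral GTPases among the members, both MX genes were called lower and the 3 GBP genes higher. MX1 and MX2, dynamin-like proteins that trap viral nucleocapsids, had the 2 largest falls of all members. MX2, on the plus strand of chromosome 21 from 41361943 to 41409390, held 5.55, 5.71 and 7.64 CPM in Control and 2.25, 2.53 and 3.21 CPM in PM2.5 libraries. It fell 2.37-fold (log2 change -1.24 ± 0.21, SE, edgeR quasi-likelihood adjusted p = 0.000348). MX1, its neighbour at 41420304 to 41459214 on the same strand, held 13.3, 13.2 and 16.5 CPM against 7.29, 6.18 and 8.13 CPM. It fell by 0.99 ± 0.16 on the log2 scale (edgeR adjusted p = 0.000172). For both genes every PM2.5 library was below every Control library and Control replicate 3 was the highest.

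The guanylate-binding proteins are large GTPases that coat intracellular pathogens and are known for their response to interferon gamma. GBP1, GBP2 and GBP3 were called higher, of which GBP2 alone was called under every alternative run. GBP2, on the minus strand of chromosome 1 from 89106132 to 89150456, held 90.5, 90.8 and 87.8 CPM in Control and 184.7, 180.8 and 175.5 CPM in PM2.5 libraries. The spread within groups was narrow beside the 2.01-fold rise (log2 change 1.01 ± 0.09, SE, edgeR quasi-likelihood adjusted p = 3.29e-07), which had the smallest p of all members. Exons of GBP7 cover 9.90% of its exonic bases. GBP1, at 89052319 to 89065360 on the minus strand, held 31.7, 39.6 and 34.9 CPM against 42.7, 49.1 and 42.7 CPM. It rose by 0.34 ± 0.11 on the log2 scale with no overlap (edgeR adjusted p = 0.0271). GBP3, at 89006666 to 89022894, held 50.8, 45.8 and 58.9 CPM against 72.3, 79.7 and 56.7 CPM. It was called (log2 change 0.42 ± 0.13, edgeR adjusted p = 0.0177), but PM2.5 replicate 3 lay below Control replicate 3.

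The GBP1 call was lost on leaving out Control replicate 1 (then adjusted p = 0.144), PM2.5 replicate 1 (0.0534) or that group's replicate 2 (0.108) in edgeR. The GBP3 call was lost on leaving out Control replicate 2 (then adjusted p = 0.0890), PM2.5 replicate 1 (0.0591) or that group's replicate 2 (0.0924). The other family members followed on the pathway list, GBP4 and GBP5, are given with the pathway lists.

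**Figure D2:**
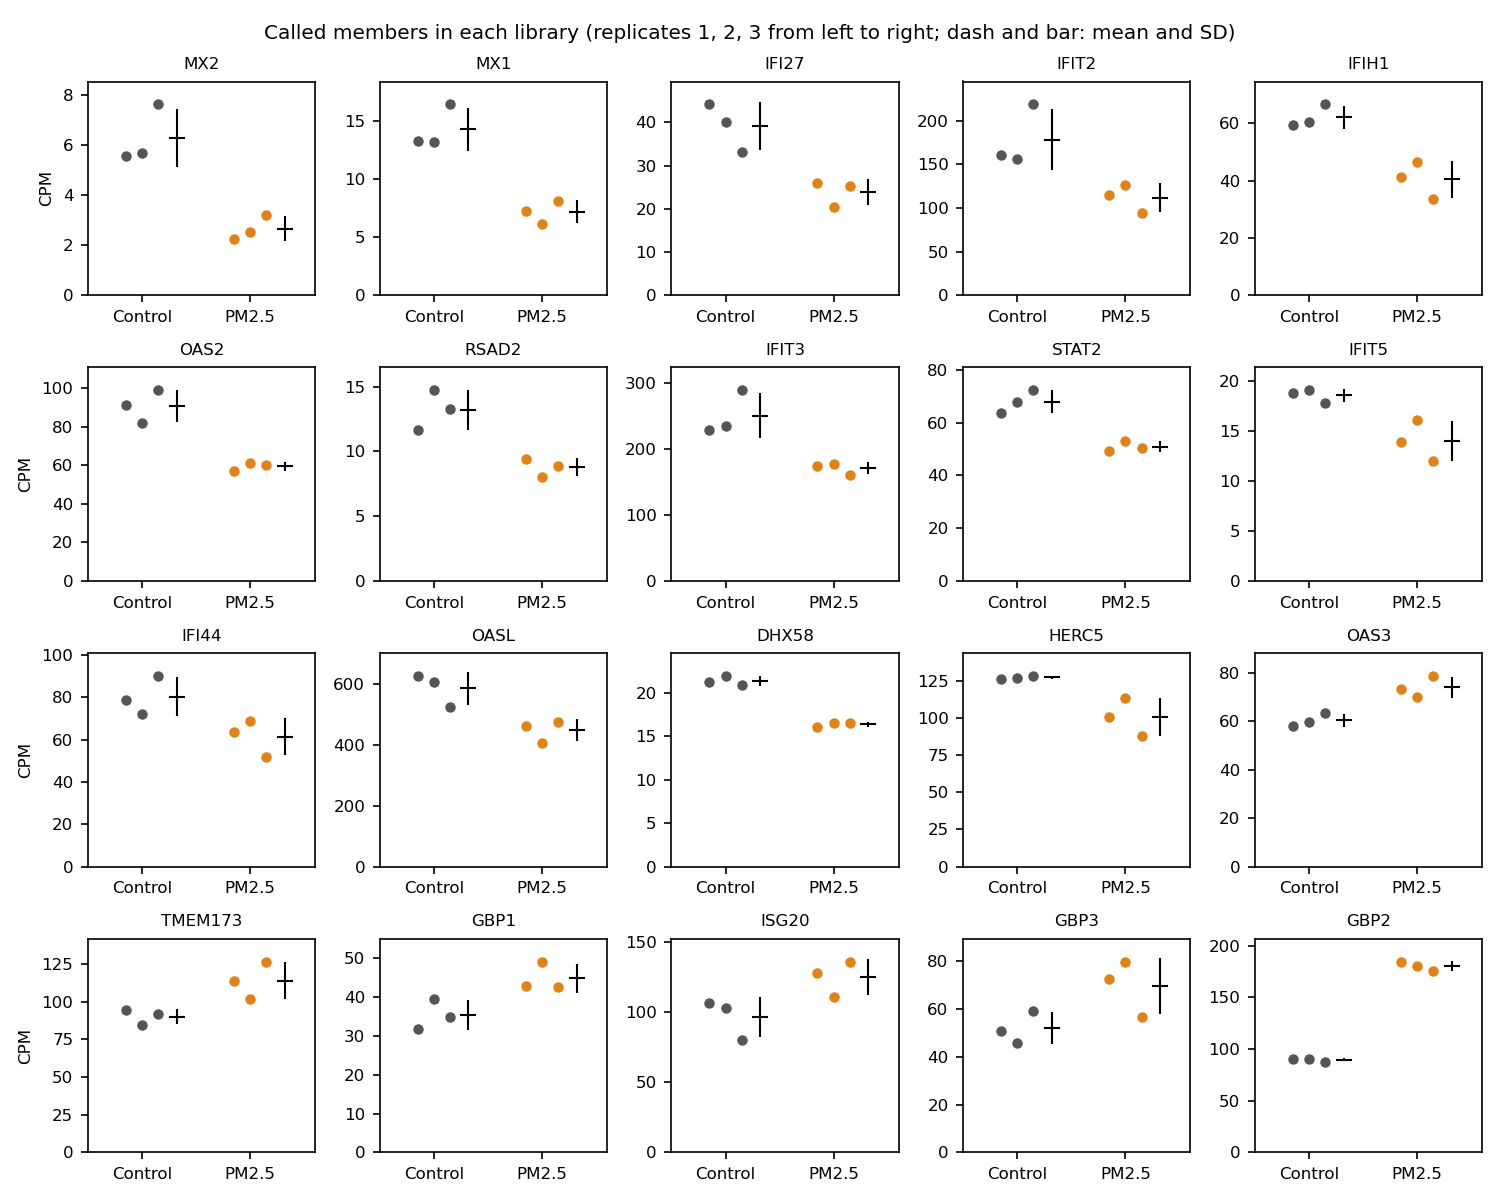
CPM of the 20 called members in each library, with Control in grey and PM2.5 in orange, replicates 1 to 3 from left to right in each group, and the mean and SD over 3 libraries beside them. Every panel starts at 0; GBP3 is the panel in which the groups overlap, with PM2.5 replicate 3 at 56.7 CPM under Control replicate 3 at 58.9 CPM.

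ISG15, a ubiquitin-like protein that is joined to other proteins, was the most abundant member per length. It held 734.8, 705.4 and 534 CPM in Control and 611, 537 and 615 CPM in PM2.5 libraries. Control replicate 3 was the lowest library and the gene was not called (log2 change -0.16 ± 0.12), but without that library it was, at -0.29 (edgeR quasi-likelihood adjusted p = 0.0119). HERC5, the ligase that attaches ISG15, fell. It held 126.3, 127.0 and 128.2 CPM against 100.6, 113.4 and 87.5 CPM, tight in the Control libraries and all lower in the PM2.5 libraries (log2 change -0.34 ± 0.10, edgeR adjusted p = 0.0179). The call was lost on leaving out Control replicate 2 (then adjusted p = 0.0527), PM2.5 replicate 1 (0.0784) or that group's replicate 3 (0.0707). HERC6, its neighbour and relative, held 8.30, 8.39 and 13.4 CPM against 7.60, 7.54 and 5.80 CPM and was just short of the threshold (log2 change -0.52 ± 0.20, edgeR adjusted p = 0.0522). It was called by DESeq2 (adjusted p = 0.0393), in edgeR with DESeq2 size factors (0.0467) or with no filter (0.0148), and in edgeR without Control replicate 1 (0.0298) or Control replicate 2 (0.0381). USP18, which removes ISG15 and damps the receptor, was not called, at 4.98 ± 0.58 and 5.11 ± 1.25 CPM (SD, n = 3 each), and 18.3% of its 75-base windows also occur in another gene.

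The remaining interferon-induced proteins had 2 falls among 6 tested, which is 33.3%, beside 15.8% of all tested genes. IFI27, a mitochondrial protein, held 44.1, 40.1 and 33.2 CPM in Control and 26.04, 20.3 and 25.3 CPM in PM2.5 libraries. It fell 1.64-fold without overlap (log2 change -0.71 ± 0.13, edgeR quasi-likelihood adjusted p = 0.000581). IFI44 held 78.7, 72.3 and 90.2 CPM against 63.8, 68.7 and 51.7 CPM and fell by 0.39 ± 0.12 on the log2 scale without overlap (edgeR adjusted p = 0.0180). The IFI44 call was lost on leaving out Control replicate 3 (then adjusted p = 0.0591) or PM2.5 replicate 3 (0.0732). IFI35, at 14.2 ± 1.73 and 11.3 ± 1.90 CPM, IFI6, at 37.1 ± 3.10 and 35.4 ± 3.57 CPM, and IFI44L, at 3.95 ± 1.14 and 3.70 ± 0.85 CPM, were not called (SD, n = 3 each). XAF1, a partner of the apoptosis inhibitor XIAP, had 0.0653 CPM in Control replicate 1 against 0.864 and 0.966 CPM in the other Control libraries. It had 0.525 to 1.24 CPM in PM2.5 libraries and was not called. Exons of PRAL cover 38.3% of the exonic bases of XAF1.

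None of the 4 membrane proteins that restrict virus entry and release was called, by edgeR, DESeq2 or limma-voom, and 0 had an unadjusted p under 0.05 in edgeR. BST2 (tetherin), which holds budding viruses at the surface, stood at 149.0 ± 9.75 and 154.1 ± 15.7 CPM, and IFITM3, which blocks fusion in endosomes, at 397 ± 73.4 and 410.2 ± 47.99 CPM (SD, n = 3 each). IFITM1 held 9.57, 9.44 and 6.79 CPM in Control and 10.7, 10.07 and 11.2 CPM in PM2.5 libraries. Its groups did not overlap, but it did not pass the test (log2 change 0.31 ± 0.16, edgeR adjusted p = 0.153). IFITM2 stood at 63.4 ± 11.9 and 61.6 ± 5.57 CPM. IFITM1 and IFITM2 share exonic bases on the same strand, 32.5% and 22.8% of each, so the split of reads between them is uncertain. Exons of AC136475.5 on the other strand cover 21.3% of the exonic bases of IFITM3, and the strand setting of the counting is not known.

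The ADP-ribosylation partners PARP9 and DTX3L, which share a promoter region on chromosome 3, and PARP14 nearby were not called, with log2 changes of -0.23 ± 0.21, -0.13 ± 0.12 and -0.15 ± 0.14 (SE). The paired growth and antiviral factors SAMD9 and SAMD9L were not called either, at 0.12 ± 0.23 and 0.40 ± 0.27. For these 5 genes DESeq2 and limma-voom also made 0 calls, and 0 had an unadjusted p under 0.05 in edgeR. In all 5 genes the highest Control library was replicate 3, for example at 7.43 CPM in PARP9 and 12.4 CPM in SAMD9.

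Among the 45 tested members Control replicate 3 was the highest Control library for 23 and the lowest for 17. Over all 14975 tested genes it was the highest for 6015 and the lowest for 5896. The gap between it and the mean of the other Control libraries had a median size of 0.24 on the log2 scale, larger than the 0.09 between Control replicates 1 and 2. Over all tested genes these medians were 0.22 and 0.13. Of the 14 members called lower it was the highest Control library for 9. Without it 15 members were lower and 5 higher in edgeR, as were 2653 and 2604 of all 14975 genes tested.

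**Figure D3:**
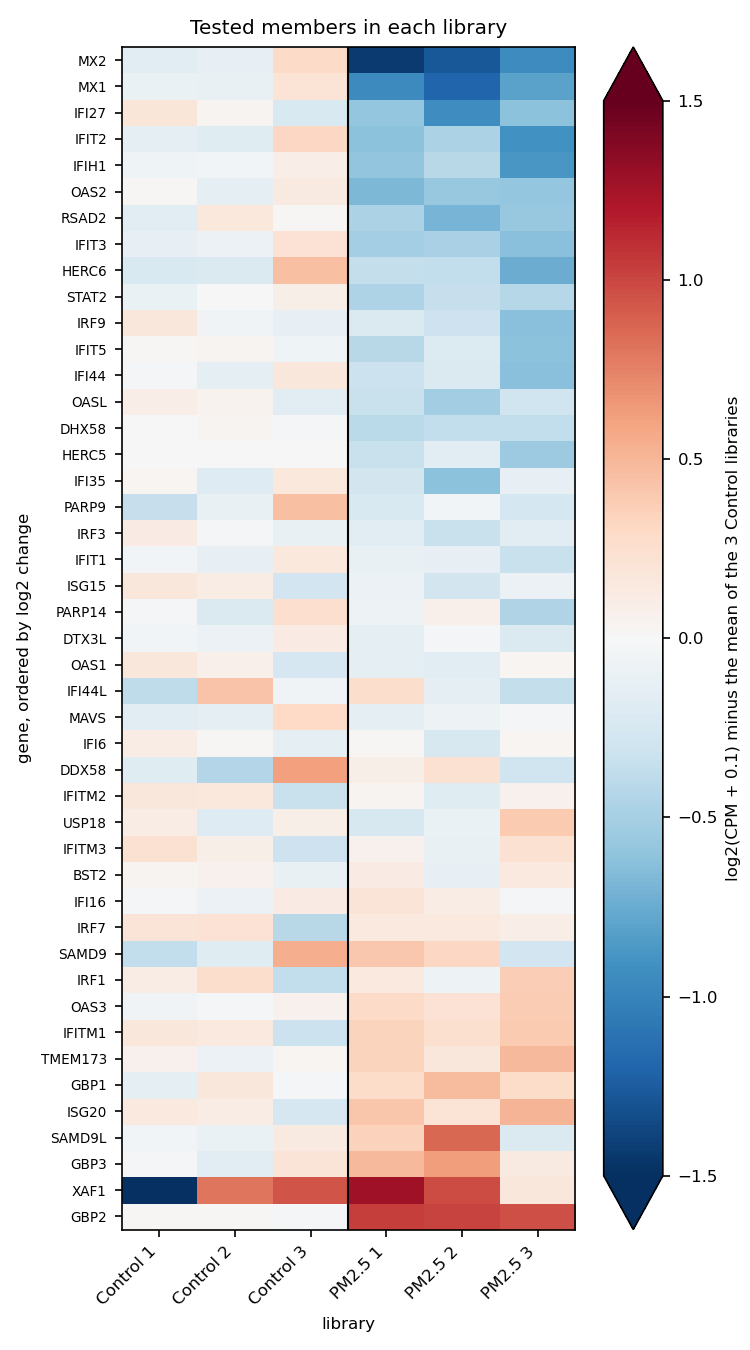
Log2(CPM + 0.1) of the 45 tested members in each of the 6 libraries, minus the mean of the 3 Control libraries, ordered by log2 change from MX2 (-1.24) to GBP2 (1.01). Control replicate 3 departs from the other Control libraries in both directions, for example upward in DDX58 (96.7 CPM) and downward in IRF7 (26.7 CPM).

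Levels between genes were compared per kilobase of the deposited gene length. In the Control libraries ISG15 was highest, at 699 CPM per kilobase, followed by IFITM3 at 295, OASL at 166, BST2 at 133 and IFIT3 at 95.04. In the PM2.5 libraries the same 5 genes led, at 625, 304, 127, 138 and 64.9 CPM per kilobase, with BST2 above OASL. MX1 and MX2 were low in comparison, at 1.66 and 0.483 CPM per kilobase in Control libraries. The members summed to 3955 to 4243 CPM per Control library and 3607 to 3823 CPM per PM2.5 library.

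The rest of the pathway was followed with 7 lists holding 110 genes, of which 94 were tested, 21 lower and 11 higher. These are 22.3% and 11.7% of those tested, beside the 15.8% and 16.1% of all genes, and the median log2 change was -0.04. No list holds a member.

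Of 10 interferon genes the 3 tested were the lambda interferons IFNL1, IFNL2 and IFNL3, at means of 3.70, 2.09 and 1.90 CPM in Control and 4.55, 1.39 and 2.24 CPM in PM2.5 libraries, none of them called. The smallest unadjusted p of the 3 was 0.0972 (IFNL2, edgeR), and DESeq2 and limma-voom called 0 of them. IFNB1, the main interferon of non-immune cells, and the 6 other interferon genes listed had no count in any library. For IFNA1, 59.4% of the 75-base windows also occur in another gene, so its count of 0 may not show absence. IFNL2 and IFNL3 share 12.5% and 11.9% of their 75-base windows with another gene, so the split between them is uncertain.

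Of 8 tested receptor and JAK kinase genes 2 fell and 1 rose. These are 25.0% and 12.5%, beside 15.8% and 16.1% of all tested genes. IFNLR1, the lambda interferon receptor chain, held 37.8, 36.1 and 34.4 CPM in Control and 20.4, 21.02 and 22.9 CPM in PM2.5 libraries, a 1.68-fold fall with no overlap (log2 change -0.75 ± 0.11, SE, edgeR quasi-likelihood adjusted p = 6.59e-05). The interferon gamma receptor chain IFNGR2 fell by 0.35 ± 0.09, a call lost without PM2.5 replicate 1 (edgeR adjusted p = 0.0708). The kinase JAK2, at a mean of 4.15 and 6.66 CPM, rose by 0.68 ± 0.21, a call lost without Control replicate 2 (edgeR adjusted p = 0.0692), either PM2.5 replicate 1 (0.0701) or replicate 2 (0.121) of that group. IFNAR1, a chain of the alpha and beta receptor, and JAK1 were not called (log2 changes of -0.37 ± 0.16 and 0.25 ± 0.10). IFNAR1 was called lower on leaving out Control replicate 1 (then adjusted p = 0.0362) or PM2.5 replicate 2 (0.0449), and JAK1 higher without PM2.5 replicate 3 (0.0265), in edgeR. DESeq2 also called JAK1 higher (adjusted p = 0.0499).

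Other sensors and their partners moved in both directions, with 4 of 12 tested lower and 1 higher. These are 33.3% and 8.33%, beside 15.8% and 16.1% of all tested genes. TRIM25, a ubiquitin ligase of the RIG-I pathway, held 100.9, 111.8 and 113.4 CPM in Control and 199.9, 219.9 and 214.6 CPM in PM2.5 libraries. It rose 1.95-fold with no overlap (log2 change 0.96 ± 0.09, SE, edgeR quasi-likelihood adjusted p = 1.04e-06). RNF135 (Riplet), another ligase that acts on RIG-I, held 23.7, 20.3 and 24.8 CPM against 12.8, 9.11 and 12.3 CPM and fell 2.01-fold (edgeR adjusted p = 8.5e-05). The Toll-like receptor adaptor MYD88 fell 1.62-fold, from 69.6 ± 3.26 to 43.04 ± 2.02 CPM, and the inflammasome DNA sensor AIM2 1.85-fold, from 11.7 ± 1.41 to 6.34 ± 0.57 CPM (SD, n = 3 each). TLR3, at 0.519 and 0.598 CPM, and the RNA-activated kinase EIF2AK2, at 36.3 and 41.2 CPM, were not called.

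ENPP1, the enzyme that breaks down the cGAS messenger outside the cell, had the largest change among the pathway genes. It held 26.4, 30.2 and 41.6 CPM in Control and 161.3, 176.8 and 143.2 CPM in PM2.5 libraries, a 4.90-fold rise with no overlap (log2 change 2.29 ± 0.14, SE, edgeR quasi-likelihood adjusted p = 6e-09). In the same list of 7 tested clearing and editing enzymes, 28.6% were lower and 14.3% higher, beside 15.8% and 16.1% of all tested genes. RNASEH2C, a subunit of the nuclease that removes RNA from DNA, fell 1.47-fold, and KAT5 exons cover 28.2% of its exonic bases. The lysosomal nuclease DNASE2 fell 1.25-fold, a call lost without Control replicate 1 (edgeR adjusted p = 0.0975), Control replicate 2 (0.0585), either PM2.5 replicate 1 (0.101) or replicate 2 (0.0719) of that group. The RNA editor ADAR was not called (log2 change -0.11 ± 0.09). The DNA exonuclease TREX1 was listed at 0 in all libraries, but exons of ATRIP cover 100% of its exonic bases.

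Among the kinases and relay proteins below the sensors 1 of 8 tested rose and 1 fell. Each is 12.5%, beside 16.1% of all tested genes higher and 15.8% lower. The ligase TRAF2 rose by 0.41 ± 0.10 on the log2 scale and TBKBP1, which binds the kinase TBK1, fell by 0.54 ± 0.14. TBK1 itself was not called, at 14.2, 14.7 and 16.8 CPM in Control and 18.7, 21.4 and 13.1 CPM in PM2.5 libraries, but was called higher without PM2.5 replicate 3 (edgeR adjusted p = 0.0390). Of 12 tested brakes on sensing and signalling 3 fell and 0 rose (0 higher at an unadjusted p under 0.05 in edgeR, and 0 by DESeq2 or limma-voom). The 3 are 25.0% of those tested. Over all tested genes 15.8% were lower and 16.1% higher. Those that fell were the phosphatase PTPN6 by 1.03 ± 0.25 and the NLR proteins NLRC5 and NLRX1 by 0.48 ± 0.11 and 0.42 ± 0.11. The feedback inhibitors SOCS1 and SOCS3 were not called, at log2 changes of -0.05 ± 0.21 and -0.12 ± 0.12.

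Of 44 further interferon-stimulated genes tested 9 fell and 7 rose. These are 20.5% and 15.9% of those tested, near the 15.8% and 16.1% of all tested genes. IDO1, which degrades tryptophan, held 53.6, 48.0 and 53.5 CPM in Control and 24.7, 21.7 and 19.4 CPM in PM2.5 libraries, a 2.35-fold fall without overlap (log2 change -1.24 ± 0.11, SE, edgeR quasi-likelihood adjusted p = 6.07e-07). GBP5, a further guanylate-binding protein, held 7.78, 4.75 and 9.01 CPM against 20.05, 23.6 and 20.4 CPM and rose 2.97-fold (log2 change 1.57 ± 0.19, edgeR adjusted p = 1.07e-05). GBP4 was not called, at 66.04 ± 2.62 and 64.3 ± 0.83 CPM (SD, n = 3 each). Of the 5 GBP genes followed here 4 were called higher, beside 16.1% of all tested genes. Of these 4, GBP2 and GBP5 alone kept the call under every alternative. GBP4 is outside the naming rule and was included after its values were seen. The retroviral restriction factor TRIM5 rose 1.92-fold and the death ligand TNFSF10 2.09-fold, with no overlap between the groups for either.

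**Figure D4:**
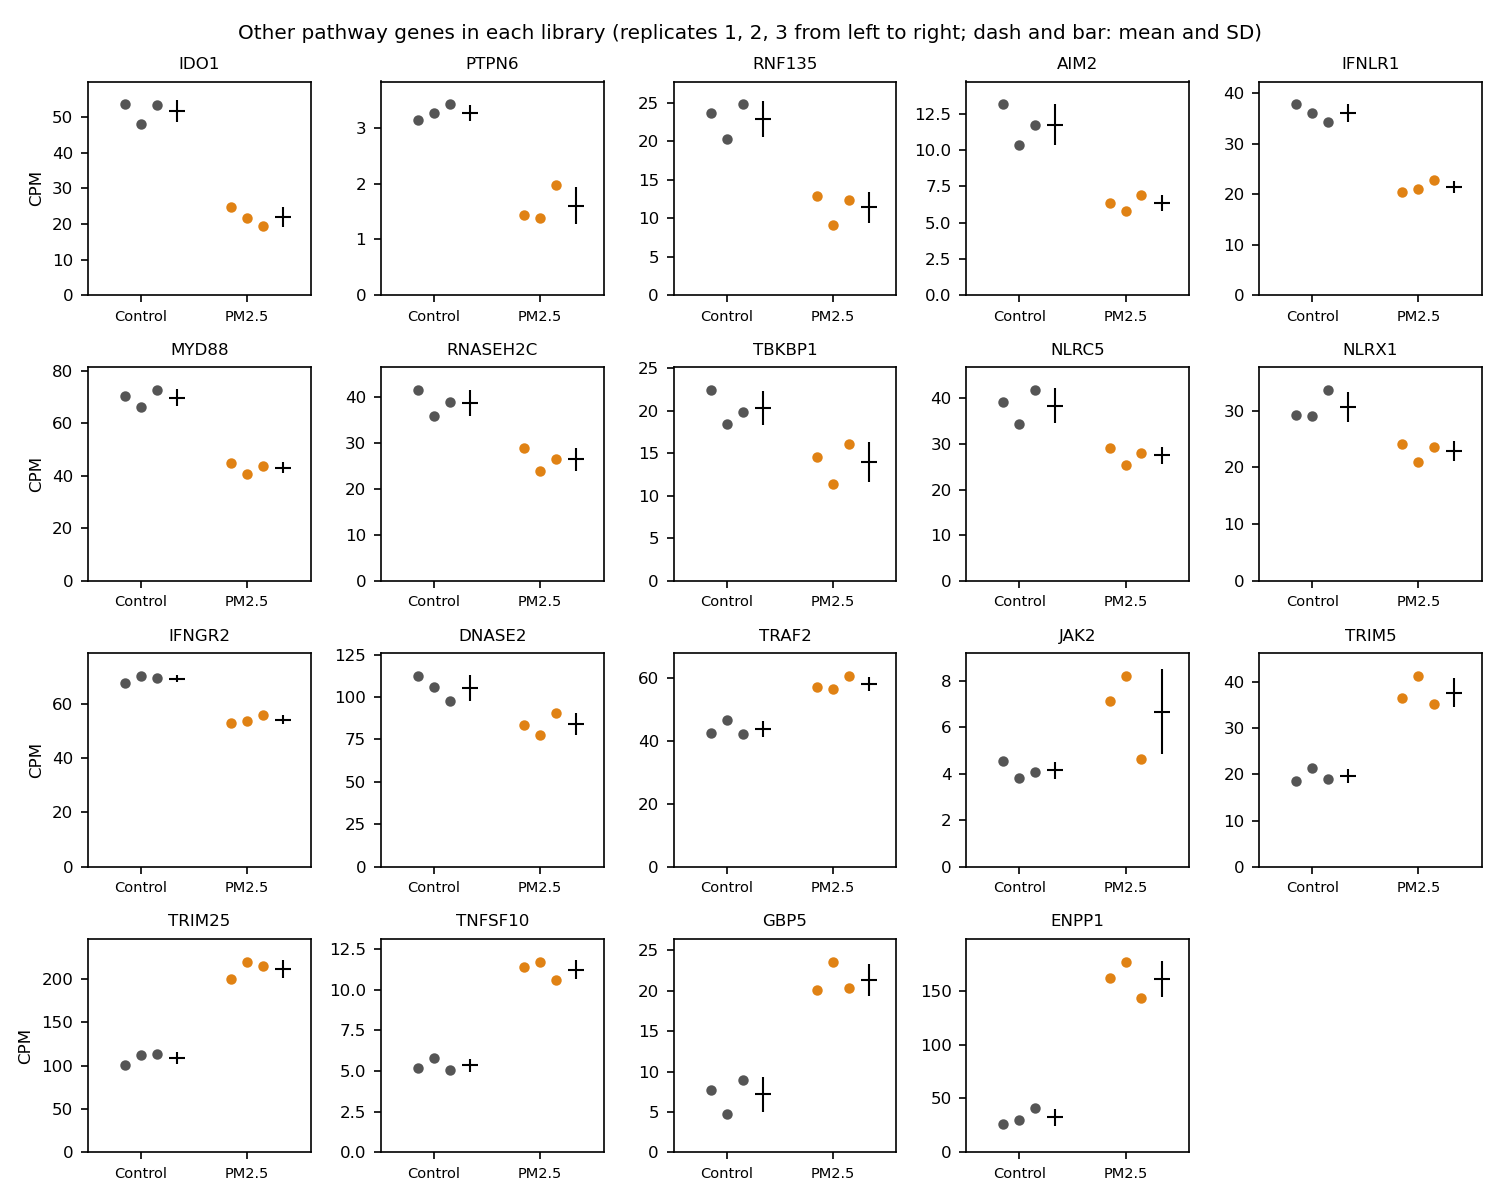
CPM in each library of the 19 pathway genes named by rule, ordered by log2 change, with Control in grey, PM2.5 in orange, replicates 1 to 3 from left to right and the mean and SD beside them. Every panel starts at 0, and the groups do not overlap in any panel, from IDO1 (2.35-fold lower) to ENPP1 (4.90-fold higher).

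**Figure D5:**
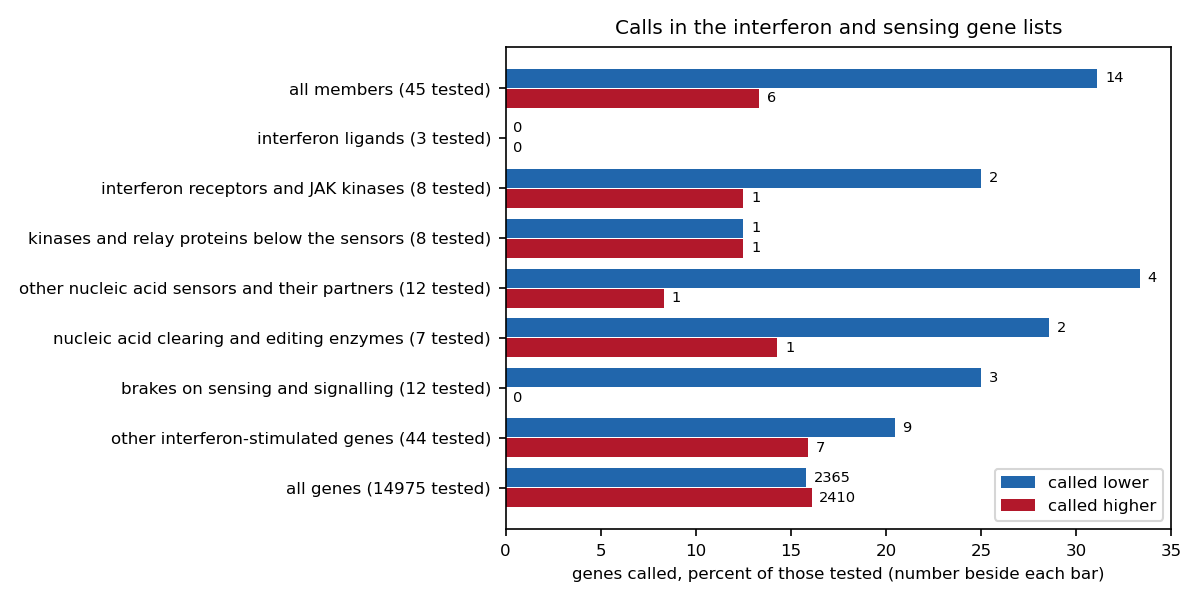
Share of tested genes called lower and higher among the 45 tested members, in each of the 7 pathway lists and over all 14975 tested genes, with the number called beside each bar. Lower calls make up 31.1% of the members and 15.8% of all genes.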

How the data were processed

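The deposited table gives whole-number counts for every gene in 6 libraries beside gene positions and lengths, per the file headers. Build GRCh38 is named in the submitters' processing notes. No source used here names the aligner, the read counter or its strandedness. All 58735 gene identifiers and coordinates matched GENCODE release 29, which gave exon overlaps and shared 75-base windows. The library kit, per the labels' protocols, was NEBNext Ultra RNA.

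Columns were assigned to libraries by title. Counts were fitted in R 4.3.3 with edgeR 4.0.16: filterByExpr (minimum count 10, minimum total 15; 14975 genes kept), TMM scaling, glmQLFit and glmQLFTest with group as the only term, two-sided, with Benjamini-Hochberg adjustment over all genes and calls at an adjusted p under 0.05. SE is the absolute log2 change over √F. Libraries of 1 group differed by more than sampling noise (chi-square per degree of freedom 5.74 to 36.2), and each was counted as 1 in the fit. This spread may be technical and does not show that the cultures were separate. The fit was tested on independent counts simulated from its own means and dispersions. Such counts hold no outlying library and no shared culture, so they cannot test those limits.

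Alternatives were DESeq2 size factors, no filter, a mean of at least 1 CPM, DESeq2 1.42.0, limma-voom (limma 3.58.1), each library left out, and the replicate number as a block. All members were accounted for. From each pathway list up to 4 called genes with the smallest p were named, plus 10 pathway genes and HMOX1, CYP1A1 and MKI67 in any case. Members and lists were chosen with earlier results of these data known. Of the genes listed, 2 are not reported here and were left out of the list counts.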

Additional observations from a re-analysis of the deposited data

How the results depend on the processing

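Across the 12 alternatives, 9 of the 14 members called lower (IFIH1, STAT2, OAS2, IFIT2, IFIT3, RSAD2, MX1, MX2 and IFI27) and 1 of the 6 called higher (GBP2) kept their call in every one. The number of members called lower was 13 to 15 under the alternatives that kept all libraries and 10 to 15 when 1 library was left out. The number called higher was 4 to 6 and 1 to 5. The median log2 change of tested members ran from -0.17 to -0.12 when 1 library was left out. Calls in the pathway lists ran from 15 to 21 lower and 9 to 14 higher when 1 library was left out. At this depth IRF9, XAF1 and TLR3 were near 1 CPM or below, with standard errors of 0.35, 0.59 and 0.45 on the log2 scale.

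Replicate numbers are shared by the groups, but the deviations of same-numbered libraries from their group means correlated at -0.00158, -0.0508 and -0.122. These values gave no sign that the numbers pair the libraries. Deviations from means of so few libraries cannot exclude a pairing. With the replicate number as a block, 13 members were lower and 4 higher, beside 1826 and 1951 of all 14975 genes (2365 and 2410 without it). The calls of ISG20 (edgeR adjusted p = 0.0587), GBP3 (0.0673), IFI44 (0.0605) and JAK2 (0.0517) were lost under the block. No library correlated best with the library of its own number.

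No member called in the main test changed direction. Signs changed only for genes that were not called, 12 members and CGAS, TLR3 and SOCS1, and the cause was not tested. For DDX58 the log2 change was 0.00 with limma-voom (0.00164) and 0.01 with the replicate block (0.00872). When 1 library was left out, the changes ran from -0.25 to 0.33 for DDX58, -0.17 to 0.074 for MAVS, -0.033 to 0.27 for IRF1, -0.071 to 0.22 for IRF7, -0.18 to 0.18 for USP18, -0.0044 to 0.13 for BST2, -0.19 to 0.044 for IFITM2, -0.094 to 0.16 for IFITM3, -0.39 to 0.044 for PARP9, -0.057 to 0.45 for SAMD9, -0.13 to 0.016 for IFI6, -0.28 to 0.15 for IFI44L, -0.067 to 0.11 for CGAS, -0.042 to 0.38 for TLR3 and -0.28 to 0.15 for SOCS1.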
